A study of Mus musculus with 8 samples.

Results

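A set of 10 genes known from hypothalamic and neuropeptide-producing neurons were measured in the nucleus accumbens (NAc) of adult male C3H/HeN mice that had or had not been separated from their mothers early in life. They are Pmch, Gal, Agrp, Hdc, Sim1, Otp, Resp18, Ecel1, Baiap3 and Gpr101, that is 10 of the 34741 gene names on the array, and each is covered by 1 probe. The 10 genes were selected by their measured difference between MS and control mice in these same arrays, so that difference is given below as a description and without a test. Of the 10, 7 gave a signal well above background on all 8 arrays, and all 7 were lower on average in MS mice. The hypothalamic transcription factors Sim1 and Otp were not well above background on any array, and Hdc was so on 2 of 8, so the name of the set is not borne out for these genes. The peptide genes Pmch and Agrp were dim: in their lowest mice, 40.2% and 48.5% of the probes lay below them. Signal from the other genes shows their RNA in the punch and not that hypothalamic neurons made it.

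The study asked which changes in the brain go with maternal separation. Pups of the MS group were taken from their dam each day from postnatal day 2 to 14, and the dams met unpredictable stress during that time, whereas control litters were left undisturbed. All mice were weaned on postnatal day 21, performed an operant task for sweetened milk as adults and were food deprived before they were killed. The controls thus share the schedule of training and the fast, but not the same responses. The paper reports more lever presses by MS males, so exposure to the milk may have differed. It also says that fasting can act differently on the NAc of MS mice. Neither was tested here. The NAc was punched from frozen slices, and Cy3-labelled RNA made from 40 ng of total RNA was hybridised to 1 array per mouse (4 control and 4 MS mice). The individual numbers differ between mice, but the labels do not say which mice were littermates, so the p-values below treat mice as independent. In 3 controls the individual number begins with 8 and in 3 MS mice with 7, and what this digit stands for is not given. If it marks a shared litter or cage, litter and group cannot be told apart in these mice, and the errors and p-values below are too small. In such bulk tissue, fewer cells of a type and less RNA per cell cannot be told apart.

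Neuropeptides are made as precursors, packed with their processing enzymes into dense-core vesicles and released far from classical synapses, where they act on G protein-coupled receptors. The lateral hypothalamus makes melanin-concentrating hormone from Pmch, the arcuate nucleus makes agouti-related protein, and the tuberomammillary nucleus makes histamine through histidine decarboxylase (Hdc). Galanin (Gal) is made in several hypothalamic nuclei and elsewhere in the forebrain and brainstem. The messenger RNA of such neurons is found mostly in their cell bodies, and the NAc receives their fibres and carries several of their receptors.

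Levels are given as log2 of the processed signal relative to the 75th percentile of the same array, so 0 is the level of the 75th percentile spot. They compare 1 gene between mice and not 1 gene with another, since each probe has its own brightness. Between 57.3% and 69.7% of the probes were well above background on an array, and the highest share belonged to control mouse 4, with the other 7 arrays at 61.2% or less. All 8 arrays lay on 1 slide and were scanned together, and each row of the slide held 2 control and 2 MS mice. The 12 genes fixed as markers of spiny neurons, among them Penk, Ppp1r1b and Drd1, gave a signal well above background on each of the 8 arrays. The punches thus held spiny neurons, but this signal cannot tell whether they also held neighbouring tissue.

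The probes tell which stretch of each transcript was read. The probes of Baiap3 (chr17:25380583-25380642, minus strand), Gal (chr19:3411143-3411202, minus strand) and Otp (chr13:95647384-95647443, plus strand; all mm9, as the array design gives them) hold a reading frame without an inner stop codon. They are shown for the gene with the largest mean difference (Baiap3), a peptide gene whose groups did not overlap (Gal) and a regulator without signal over background (Otp).
Baiap3 probe: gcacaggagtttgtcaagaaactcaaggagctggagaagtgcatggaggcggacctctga
Gal probe: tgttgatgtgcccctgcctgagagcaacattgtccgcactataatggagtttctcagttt
Otp probe: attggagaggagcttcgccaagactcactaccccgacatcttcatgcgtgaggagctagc
The remaining probes lie at Resp18 chr1:75268777-75268836, Gpr101 chrX:54749936-54749995, Ecel1 chr1:89044233-89044292, Sim1 chr10:50708865-50708924, Hdc chr2:126419516-126419575, Pmch chr10:87555031-87555090 and Agrp chr8:108090600-108090659 (mm9). Of these, the probes of Ecel1, Hdc and Agrp also hold a frame without a stop codon. Whether any of the stretches, those printed included, is coding or untranslated was not determined here.

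The promoters of 9 of the 10 genes were found in the RefSeq table (GRCm38.p6), and Agrp had no entry. The 250 bases before the transcription start are printed for the 3 genes whose groups did not overlap (Resp18, Gpr101 and Gal) and for Pmch, with every match to the motifs searched in capitals.
Resp18 promoter, chr1:75278416-75278665, minus strand: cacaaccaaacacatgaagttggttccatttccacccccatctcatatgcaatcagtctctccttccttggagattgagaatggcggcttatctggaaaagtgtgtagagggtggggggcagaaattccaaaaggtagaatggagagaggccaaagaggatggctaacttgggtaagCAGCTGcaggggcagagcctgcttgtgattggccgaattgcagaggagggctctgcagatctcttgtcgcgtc
Gpr101 promoter, chrX:57503758-57504007, minus strand: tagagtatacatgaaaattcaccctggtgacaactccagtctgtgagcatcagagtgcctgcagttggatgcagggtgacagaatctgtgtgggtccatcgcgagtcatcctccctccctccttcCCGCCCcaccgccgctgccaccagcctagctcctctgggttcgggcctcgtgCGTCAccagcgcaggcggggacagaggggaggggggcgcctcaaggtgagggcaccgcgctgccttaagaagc
Gal promoter, chr19:3414545-3414794, minus strand: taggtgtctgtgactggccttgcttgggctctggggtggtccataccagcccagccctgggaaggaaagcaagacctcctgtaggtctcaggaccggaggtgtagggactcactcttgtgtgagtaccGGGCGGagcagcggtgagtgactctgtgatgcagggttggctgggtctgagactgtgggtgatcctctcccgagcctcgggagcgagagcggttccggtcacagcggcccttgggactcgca
Pmch promoter, chr10:88090822-88091071, plus strand: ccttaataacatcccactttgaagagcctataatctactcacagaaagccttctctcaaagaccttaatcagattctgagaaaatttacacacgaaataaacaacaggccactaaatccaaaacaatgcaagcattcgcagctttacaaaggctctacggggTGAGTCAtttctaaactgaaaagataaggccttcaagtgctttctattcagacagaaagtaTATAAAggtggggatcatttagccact
The capitals mark an E-box (CAGCTG) in Resp18, a GC box (GGGCGG) and a cAMP response element half-site (TGACG) in Gpr101, a GC box in Gal, and an AP-1 site (TGACTCA) and a TATA box (TATAAA) in Pmch, each searched on both strands. Of all 32851 promoters in the table, 13% held the E-box, 32.7% the GC box, 17.8% the half-site, 4.46% the AP-1 site and 12.4% the TATA box in the same 250 bases. The full cAMP response element (TGACGTCA, in 1.55% of promoters), the homeodomain core TAATTA (4.84%) and the SIM and ARNT element TACGTG (2.72%) matched none of the 9 promoters. The half-site is contained in the full element. No motif was shared by Resp18, Gpr101 and Gal, and these matches describe letters and not bound sites.

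Among the peptide genes, Gal was lower in MS mice and its groups did not overlap. Its log2 level was -0.34, -0.02, -0.30 and -0.32 in control mice 1 to 4 and -0.43, -0.76, -0.74 and -0.72 in MS mice 1 to 4. MS mice 2 to 4 lay close together, while MS mouse 1 came near the controls and control mouse 2 stood above its group. Control mice averaged -0.25 ± 0.15 and MS mice -0.66 ± 0.16 (mean ± SD, n = 4 each), a difference of -0.41 (limma SE 0.11) or 1.33-fold.

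Pmch, the precursor of melanin-concentrating hormone, varied more between mice. Control mice 1 to 4 had a log2 level of -3.56, -3.44, -3.95 and -2.75, and MS mice 1 to 4 one of -3.73, -5.00, -3.61 and -4.60. MS mice 2 and 4 were below every control, while MS mice 1 and 3 lay within the control range. The value of MS mouse 2 was close to the lowest level called well above background on its array (-5.43). The difference of the means was -0.81 (SE 0.36), and it was -0.31 after normexp background correction of the scanner means and -0.36 in the deposited values.

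Agrp encodes agouti-related protein, which blocks the melanocortin receptors Mc3r and Mc4r. On the log2 scale it lay at -3.66, -3.35, -3.33 and -2.62 in control mice 1 to 4 and at -3.79, -3.36, -3.49 and -3.65 in MS mice 1 to 4. Control mice 2, 3 and 4 lay above every MS mouse, the first 2 of them by a small margin, and control mouse 1 fell inside the MS range. The difference was -0.33 (SE 0.21), and -0.12 without control mouse 4.

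Hdc, which makes histamine from histidine, exceeded background in control mouse 1 and MS mouse 2 alone. In log2 units it gave -4.78, -5.49, -5.50 and -5.07 in control mice 1 to 4 and -5.10, -4.82, -5.17 and -4.68 in MS mice 1 to 4. The groups overlapped, and no difference is given for a probe at background in most mice. Mast cells also make histamine: of 8 mast cell genes, 5 (Tpsab1, Cma1, Cpa3, Mcpt4 and Fcer1a) were not well above background on any array, Ms4a2 was so on 1 control array, and Tpsb2 and Kit were measurable on all 8 with differences of 0.02 and -0.10 (adjusted p = 0.93 and 0.594 by limma).

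The transcription factors gave no level that could be compared. Sim1, a partner of Arnt2 in the paraventricular and supraoptic nuclei, lay between -7.32 and -6.72 in controls and between -7.34 and -6.88 in MS mice. Otp, a homeodomain factor needed for neuroendocrine neurons, lay between -7.21 and -5.53 in controls and between -7.35 and -6.60 in MS mice, with control mouse 4 at -5.53. The lowest level called well above background on any array was -5.44, so both genes had only an upper bound in the NAc, and no fold is given. Arnt2 itself was present on all 8 arrays and differed by -0.03 (SE 0.10, adjusted p = 0.933).

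**Figure D1:**
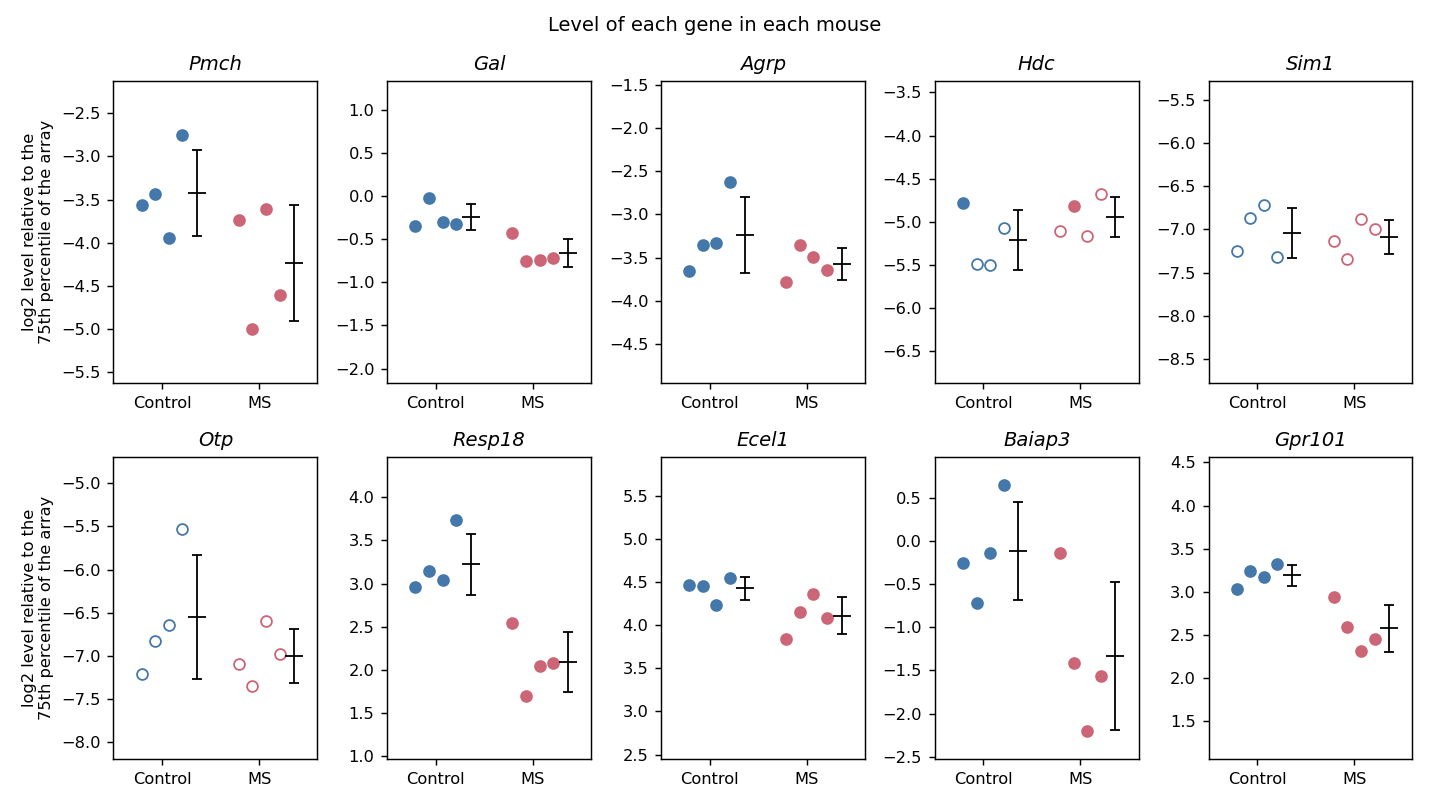
Each panel plots 1 gene and each point 1 mouse (blue, 4 control; red, 4 MS), with the log2 level relative to the 75th percentile of the array on the vertical axis, panels of equal height, open points for arrays where the probe was not well above background, and bars for mean ± SD. Resp18, Gpr101 and Gal have no overlap between groups on this scale, while Sim1 and Otp have open points alone.

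Resp18 showed the widest gap between groups. It encodes regulated endocrine-specific protein 18, a luminal protein of the secretory pathway in endocrine and peptidergic cells. Its log2 level was 2.96, 3.15, 3.04 and 3.74 in control mice 1 to 4 and 2.54, 1.70, 2.04 and 2.08 in MS mice 1 to 4. Every MS mouse lay below every control mouse, with control mouse 4 at the top and MS mouse 1 nearest to the controls. Control mice averaged 3.22 ± 0.35 and MS mice 2.09 ± 0.35, a difference of -1.13 (SE 0.21) or 2.19-fold, and -0.96 without control mouse 4.

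Gpr101, an orphan receptor of the G protein-coupled family that is found in the hypothalamus and the NAc, varied little among the controls. The 8 arrays gave log2 levels of 3.03, 3.24, 3.17 and 3.32 in control mice 1 to 4 and 2.94, 2.59, 2.31 and 2.45 in MS mice 1 to 4. The groups did not overlap, but MS mouse 1 lay just under control mouse 1. Control mice averaged 3.19 ± 0.12 and MS mice 2.58 ± 0.27, a difference of -0.61 (SE 0.14) or 1.53-fold, and -0.57 without control mouse 4.

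Baiap3 belongs to the Munc13 family, whose members prime vesicles for release, and acts in dense-core vesicle traffic. Log2 levels were -0.25, -0.71, -0.14 and 0.65 in control mice 1 to 4 and -0.14, -1.42, -2.20 and -1.57 in MS mice 1 to 4. MS mouse 1 was as high as the controls, and the other 3 MS mice were below all of them. The difference was -1.22 (SE 0.44), the largest of the 7 measurable genes and the one with the largest error, and with 1 mouse left out it ran from -1.61 (without MS mouse 1) to -0.93 (without MS mouse 3).

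Ecel1 encodes a membrane endopeptidase of the neprilysin family that is made in neurons. Its log2 level was 4.46, 4.46, 4.23 and 4.54 in control mice 1 to 4 and 3.84, 4.15, 4.36 and 4.08 in MS mice 1 to 4. MS mouse 3 was above control mouse 3, so the groups overlapped by 1 mouse. The difference was -0.32 (SE 0.12).

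Of the 7 measurable genes, 3 (Resp18, Gpr101 and Gal) were lower in MS mice with no overlap between the groups, against 4.91% of the 33111 probes tested. With median scaling Gal overlapped as well, and 2 remained. Since the genes were picked on this contrast, nothing is read from the count. Over all probes, the limma fit called 1 at an adjusted p of 0.05, 0.00302% of those tested. An unadjusted p under 0.05, in either direction, was found for 4654 of the 33111. The counts of unadjusted p in the gene lists below stand beside that share and not beside 1 in 20.

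**Figure D2:**
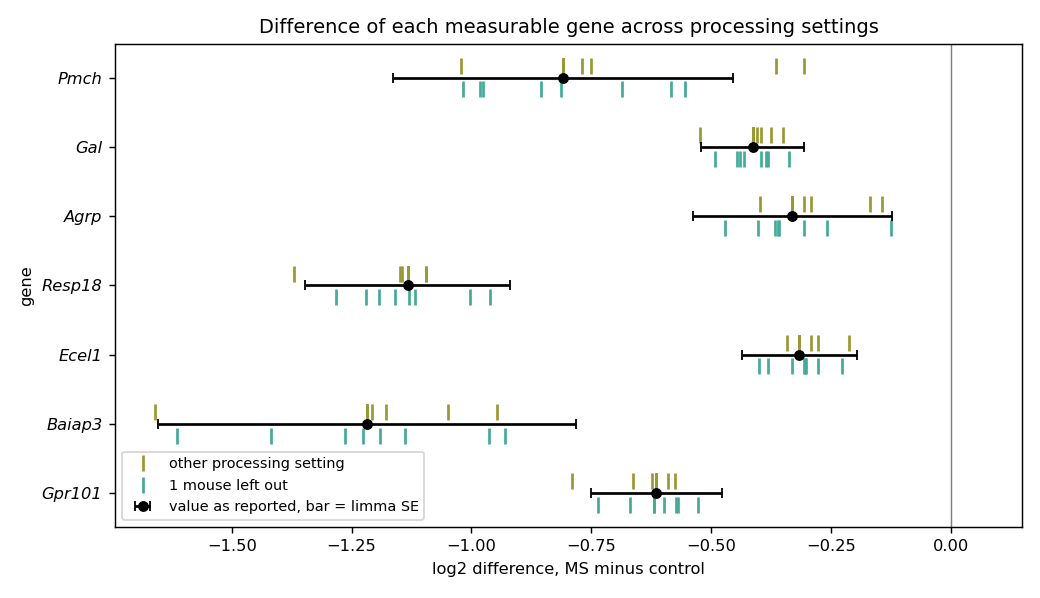
Log2 difference between MS and control means for the 7 measurable genes (black points, bars for the limma SE), with the values under other processing settings (olive ticks) and with 1 mouse left out (teal ticks). All ticks lie left of 0, and those of Resp18 run from -1.37 to -0.96.

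The slide rows, which hold 2 mice of each group, gave the same direction for all 7 measurable genes. The difference was -0.94 and -1.33 in rows 1 and 2 for Resp18, -0.36 and -0.86 for Gpr101, and -0.41 and -0.42 for Gal. Gal was thus alike in both rows. Baiap3 (-0.30 and -2.14) and Agrp (-0.07 and -0.59) had the larger difference in row 2, where control mouse 4 was placed, and Ecel1 (-0.47 and -0.17) and Pmch (-0.87 and -0.75) in row 1. The 4 slide columns held 1 mouse of each group, and there Resp18 (-2.05 to -0.50), Gpr101, Baiap3, Ecel1 and Gal were lower in the MS mouse of all 4, with Baiap3 at -0.0047 in column 2. Pmch was higher by 0.21 in column 2 and Agrp by 0.17 in column 1.

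Within groups the 7 genes did not vary as a block. After the group means were taken off, the correlation over 8 arrays between pairs of genes had a median of 0.28 over 21 pairs, and 16 of them were above 0. The closest pairs were Gpr101 with Baiap3 (r = 0.86), Resp18 with Pmch (0.79) and Resp18 with Baiap3 (0.71). Ecel1 ran against Gpr101 (-0.65) and Baiap3 (-0.59). These arrays share a slide and the scaling, and the values are a description.

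Among 21032 genes well above background on all arrays, the genes whose deviations most resembled those of each member were, by the same measure, Zfp846 (0.99) and Timm17b (0.98) for Resp18, Lama2 (0.98) for Gpr101, Hpcal1 (0.99) and Fam228b (0.98) for Baiap3, and Luzp2 (0.98) and Klc2 (0.97) for Ecel1. For the peptides they were Cacna1b, Podn and Dhrs13 (all 0.98) for Gal, H2bc21 (0.996) and Tmem200a (0.99) for Pmch, and Fsd1l (0.98), A230009B12Rik (0.98) and 4930506C21Rik (0.97) for Agrp. The remaining places among the 3 nearest of each gene fell to probes with no gene symbol. No gene stood among the nearest of 2 members. A search over so many genes with 8 arrays finds high correlations between unrelated genes too, so no link is read from these values.

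The receptors on which these peptides and amines act were measured on the same arrays. Hrh1, the excitatory histamine receptor, had a log2 level of 0.05, 0.19, 0.15 and 0.31 in control mice 1 to 4 and -0.11, -0.52, -0.17 and -0.35 in MS mice 1 to 4. Its groups did not overlap, with a difference of -0.46 (SE 0.11, adjusted p = 0.127 by limma), and its 2 other measurable probes had the same sign. Hrh3, the histamine receptor that inhibits release and is abundant in striatum, was 4.90, 4.98, 4.91 and 4.48 in controls and 4.99, 5.13, 5.295 and 5.32 in MS mice. Its groups did not overlap either, in the opposite direction, with a difference of 0.37 (SE 0.13, adjusted p = 0.263). The margin was narrow, with control mouse 2 at 4.98 and MS mouse 1 at 4.99, and the difference was 0.25 without control mouse 4. Neither difference passed the threshold.

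Mchr1, the receptor of melanin-concentrating hormone, differed by 0.30 (SE 0.12, adjusted p = 0.324). The melanocortin receptors Mc3r and Mc4r differed by -0.29 and -0.50 (adjusted p = 0.413 and 0.263), and Pomc, the precursor of their agonists, by -0.08 (adjusted p = 0.80). Of the galanin receptors, Galr1 exceeded background on 2 control arrays and on no MS array, Galr3 on 1 control array, and Galr2 on none. Hrh4 differed by 0.01, and Hrh2 was well above background on 1 control array. Hnmt, which inactivates histamine, differed by -0.13 (adjusted p = 0.589; -0.08 without control mouse 3).

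Relatives of the secretory genes gave no common direction. Ptprn, a granule membrane protein related to Resp18, differed by 0.02 (adjusted p = 0.946). Of the Munc13 relatives of Baiap3, Unc13a, Unc13b, Unc13c and Unc13d differed by 0.19, 0.07, -0.03 and 0.03. The other measurable probe of Unc13a and that of Unc13d had the opposite sign. Of the endopeptidases related to Ecel1, Mmel1 was lower without overlap (-0.64, SE 0.16, adjusted p = 0.148), Ece2 differed by -0.46 and Phex by 0.74 (SE 0.32, adjusted p = 0.344), and Ece1 and Mme by -0.07 and 0.04. For Ece2, 1 of its 2 other measurable probes had the opposite sign. In all, 22 of the 26 receptor and partner genes were tested, none passed limma's adjusted threshold, 6 lower and 3 higher had an unadjusted p under 0.05, and their median difference was -0.03, beside 0.0022 over all probes.

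Other peptides of hypothalamic neurons were divided. Of 27, 19 were tested and none passed, 2 lower and 1 higher had an unadjusted p under 0.05, and the median difference was -0.08. The 1 higher was Pdyn, which with Penk and Tac1 also stands among the spiny neuron markers. Crh, the precursor of corticotropin-releasing hormone, had a log2 level of 1.80, 2.01, 2.12 and 2.27 in control mice 1 to 4 and 1.25, 0.67, -0.05 and 1.43 in MS mice 1 to 4. The groups did not overlap, and the difference was -1.22 (SE 0.30, adjusted p = 0.143). Hcrt, the orexin precursor, was also lower without overlap (-3.78 ± 0.32 against -4.52 ± 0.26, difference -0.73, adjusted p = 0.152).
Ghrh differed by -0.52 (-0.18 without control mouse 3), Nts by -0.36 (-0.06 without MS mouse 2) and Tac1 by 0.28 (0.17 without MS mouse 3), each with overlap between the groups.

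Of 26 other hypothalamic transcription factors, 17 were tested and 1 passed, Lhx5, a LIM homeodomain factor. Its signal exceeded background on all 4 control arrays (-3.98, -3.58, -4.13 and -2.97) and on no MS array (adjusted p = 0.00744 by limma, measured means -3.66 and -7.19). With each MS value raised to the lowest level called well above background on its array, the gene was 2.88-fold lower in MS mice. That fold is no strict bound, since a probe above that level can go uncalled, as Hdc did in MS mouse 4. Lhx5 met the filter on dim probes through the control arrays alone, so it had to differ to be tested and nothing further is read from its p. The call was lost when control mouse 2 or MS mouse 1, 2 or 4 was left out. Nkx2-1 was lower without overlap (-0.59, SE 0.16, adjusted p = 0.168), and Pou3f2 differed by -0.27. Sim2, a relative of Sim1, differed by -0.43 (-0.27 without control mouse 4) and Nkx2-2 by -0.21 (-0.06 without MS mouse 3). Lmx1b differed by 0.51, but by -0.13 without MS mouse 2, and its other measurable probe had the opposite sign. The median of the tested factors was -0.16, and 3 beside Lhx5 had an unadjusted p under 0.05, all lower.

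Genes enriched in hypothalamus were lower in sign as a list. Of 22, 19 were tested and all 19 were lower in sign in MS mice, with a median of -0.36, where 49.4% of all probes tested were lower. None passed limma's adjusted threshold, and 7, all lower, had an unadjusted p under 0.05, beside 4654 of 33111 probes in either direction. The signs of Nnat, Dlk1, Irs4, Gabre and Slc18a2 each turned when 1 mouse was left out. The list was chosen with earlier results of these data known, so nothing is read from the count. Nap1l5, an imprinted gene, was lower without overlap (-0.67, SE 0.13, adjusted p = 0.107), as were the imprinted gene Ndn (-0.39, adjusted p = 0.184) and Cbln1, which encodes a synaptic organiser (-0.95, adjusted p = 0.158). Magel2 differed by -0.85, Asb4 by -0.69 (-0.37 without control mouse 4) and Prlr, the prolactin receptor, by -1.73 (adjusted p = 0.292). Slc17a6, the vesicular glutamate transporter of subcortical neurons, was singled out after its values were seen: it was -1.37, -1.61, -2.04 and -0.73 in controls and -5.00, -6.35, -2.24 and -3.42 in MS mice, without overlap (difference -2.82, SE 0.79, adjusted p = 0.183). In MS mouse 2 this probe was not well above background, so the value of that mouse is only an upper bound. Without MS mouse 2 the difference was -2.12.

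The general machinery of dense-core vesicles gave no common direction. All 24 secretory granule and processing genes were tested, 13 were lower and 11 higher in sign, the median was -0.01, none passed limma's adjusted threshold, and 3 lower and 1 higher had an unadjusted p under 0.05. Chga (chromogranin A) was lower without overlap (-0.35, SE 0.09, adjusted p = 0.166), as were Cadps2 (-0.74, adjusted p = 0.189) and Pcsk1n (-0.14, adjusted p = 0.39). Cadps, which primes dense-core vesicles, differed by -0.37. The prohormone convertase Pcsk2 differed by 0.37 (0.24 without control mouse 4) and the granin Vgf by 0.21.

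**Figure D3:**
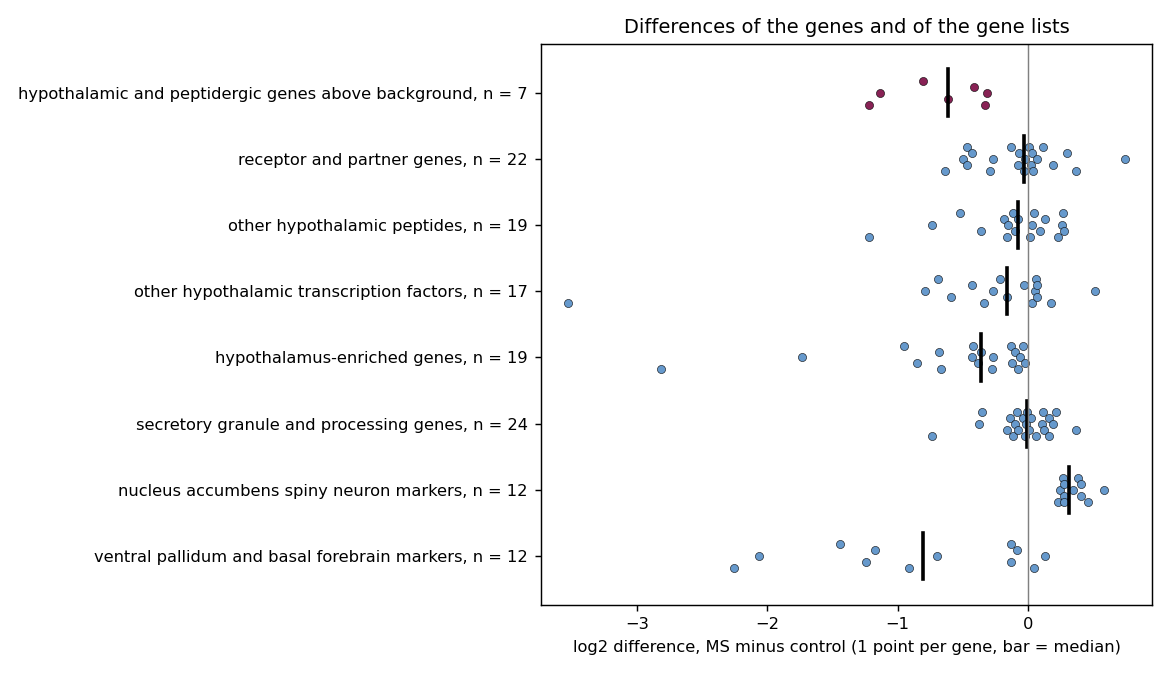
Log2 difference between MS and control means, 1 point per gene, for the 7 measurable genes (top row, chosen on this contrast) and for 7 gene lists, with a black bar at each median. The hypothalamus-enriched genes and most pallidal markers lie left of 0, the spiny neuron markers lie right of 0, and the medians of receptors and granule genes lie close to 0.

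Markers of the neurons that the punch could hold are given beside these values. These marker lists too were chosen with earlier results of these data known, so nothing is read from their counts. All 12 markers of spiny neurons, the projection neurons of the NAc, were higher in sign in MS mice, with a median of 0.31. Of all probes tested, 49.4% were lower in sign. None of the 12 passed limma's adjusted threshold, and 6, all higher, had an unadjusted p under 0.05, beside 4654 of 33111 probes in either direction. Adora2a differed by 0.58, Foxp1 by 0.46, Rgs9 by 0.41 (0.25 without control mouse 4) and Drd3 by 0.40 (without overlap). Their summed level, in units of the array's 75th percentile, ranged from 691 to 1035 in controls and from 969 to 1167 in MS mice, and control mouse 4 had the lowest sum of all while MS mouse 1 had the lowest among the MS mice. Bright probes weigh most in such a sum, and that of Penk was the brightest here.

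The 12 markers of the ventral pallidum and basal forebrain, which lie beside the NAc, went the other way in 10 of 12 genes, with a median of -0.81. None passed limma's adjusted threshold, 7, all lower, had an unadjusted p under 0.05, and these 7 were also lower without overlap. Of the 33111 probes tested, 49.4% were lower in sign, 4.91% were lower without overlap, and 4654 had an unadjusted p under 0.05 in either direction. Under other settings 6 passed with normexp (Npas1, Lhx8, Pvalb, Vamp1, Kcnc2 and Gbx2), 5 with the deposited values, 3 with trended robust moderation, 2 with the filter on all 8 arrays and 1 with median scaling (Npas1). In the fit over all probes Npas1 differed by -2.26 (SE 0.36, adjusted p = 0.0709), Pvalb by -2.07, Kcnc2 by -1.45, Vamp1 by -1.24 and Gbx2 by -1.17, while the cholinergic genes Chat, Slc5a7 and Slc18a3 differed by -0.13, -0.09 and -0.13. The summed level ranged from 54.1 to 58.0 in controls and from 48.0 to 50.2 in MS mice, without overlap. Lhx6 and Etv1 have the brightest probes of this list and weigh most in the sum. These genes were not lower (0.13 and 0.05), and the other measurable probe of each had the opposite sign. Control mouse 4, which had the highest level of Resp18, Gpr101, Baiap3, Ecel1, Pmch and Agrp, and MS mouse 1, the MS mouse nearest to the controls in Resp18, Gpr101, Baiap3 and Gal, are the mice with the lowest spiny neuron sum of their groups. MS mouse 1 was, however, the lowest MS mouse in Ecel1 and Agrp, and in Pmch MS mouse 3 was nearest to the controls. The part of these markers in the differences of the 7 genes was not tested.

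**Figure D4:**
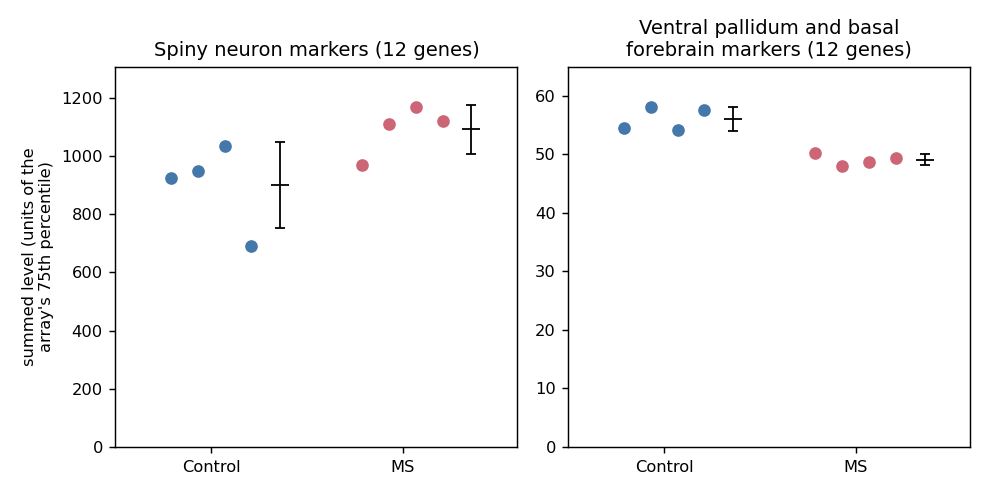
Summed level of the 12 spiny neuron markers and of the 12 ventral pallidum and basal forebrain markers in each mouse (blue, control; red, MS), in units of the array's 75th percentile, with bars for mean ± SD of 4 mice. Control mouse 4 has the lowest spiny neuron sum, and the pallidal sums of the groups do not overlap.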

How the data were processed

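Gene expression in the NAc of 4 control and 4 MS mice was measured on 1-colour Agilent arrays. The authors deposited 1 scanner file per array, made with Agilent Feature Extraction 10.10.1.1 (design coordinates in mm9), whose processed signal is a linear intensity already corrected for background. They also deposited a table of normalized log2 values for 31261 probes. Its columns all had a median of 8.01 and correlated at r = 0.991 to 0.994 with the log2 scanner signal, so it is on a log2 scale, not centred by gene, while its normalization is not given in the sources used here.

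The log2 processed signal was set relative to the 75th percentile of each array. Control spots and outlier-flagged spots (122 to 189 per array) were left out, no spot was saturated, and spots of a probe were averaged. Of 55681 probes, the 33111 that exceeded background on 4 or more of the 8 arrays were fitted with limma 3.58.1 in R 4.3.3 (lmFit, eBayes, Benjamini-Hochberg over all probes, threshold 0.05), and SE is the moderated standard error of the group difference. A list gene was read from its brightest tested probe. The array number limits the precision. Names came from RefSeq by accession for 27235 probes and by symbol for 3581, and older symbols were updated for 565; 24300 kept the array's name.

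The 10 genes and all gene lists were chosen with earlier results of these data known. The text names the 10 genes, the receptors of their peptides and amines, Hnmt, Arnt2 and Ptprn, and from each list every gene past the threshold and the 5 with the largest difference among genes measurable on all 8 arrays. It further names, where they have a symbol, the 3 genes that vary most like each of the 7 measurable genes. A spiny neuron marker that this rule names is not reported here. Unc13a to Unc13d, Ece1, Mme, Pomc, Ndn, Pcsk1n, Slc17a6, Nnat, Dlk1, Irs4, Gabre, Slc18a2, Drd1, Ppp1r1b, Penk, Pdyn, Lhx6, Lhx8, Etv1, the cholinergic genes and the mast cell genes were named after their values were seen. Penk, Pdyn and Tac1 (spiny neurons and peptides), Arnt2, Sim2, Pou3f2, Pomc, Ptprn, Ptprn2, Unc13a and Nhlh2 stand in 2 lists. Motifs were chosen with the promoters in view. Alternatives were normexp (offset 50) on the mean and background signals, median and quantile scaling, the deposited values, both filters on dim probes, trended robust moderation, slide row and slide column as blocks, the mean over probes, the mice with a shared individual number, and each mouse left out. The fit was tested on simulated data. Accession order numbers the mice and pairs none of them.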

Additional observations from a re-analysis of the deposited data

Results flagged for a closer look

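Gal was flagged in both groups because 1 mouse stood far from the 3 others, measured as its gap to the nearest of them over the range of the group. Control mouse 2 had a log2 level of -0.02, and the gap was 0.871 of the range of the control group. MS mouse 1 had a log2 level of -0.43, and the gap was 0.877 of the range of the MS group. Of 14 groups checked (7 genes, 2 groups each), these 2 were flagged, where chance flags about 1 in 20.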

How the results depend on the processing

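The difference of each of the 7 measurable genes kept its sign and stayed within 1 SD between mice in 19 of 19 alternatives, from -1.37 to -0.96 for Resp18, -0.79 to -0.53 for Gpr101, -0.52 to -0.34 for Gal, -1.66 to -0.93 for Baiap3, -0.40 to -0.21 for Ecel1, -1.02 to -0.31 for Pmch and -0.47 to -0.12 for Agrp. Some of these alternatives could not move a difference, so their agreement was fixed in advance. They are both filters on dim probes, trended robust moderation, both slide blocks and the mean over probes. Each gene has 1 probe, and the groups are balanced over slide rows and columns. The count of genes lower in MS mice without overlap, 3 in all mice, was 5 in the mice whose individual numbers share the digit before the point (3 of each group), 2 with median scaling, where Gal overlapped, and 3 to 5 with 1 mouse left out, the 5 without control mouse 3. The number of probes called, 1 in all, was 486 with normexp, 375 of 31261 with the deposited values, 504 with trended robust moderation, 113 in the 30053 probes above background on all 8 arrays, 81 with median scaling, 37 without control mouse 3 and 9 with the mean over probes of a gene. With normexp, 3 hypothalamus-enriched genes passed (Cbln1, Nap1l5 and Slc17a6), with 1 other peptide (Crh) and 2 receptor and partner genes (Hrh1 and Mmel1). With the deposited values, 2 hypothalamus-enriched genes (Nap1l5 and Slc17a6), 1 peptide (Crh) and 1 receptor and partner gene (Mmel1) passed. With trended robust moderation, 1 hypothalamus-enriched gene (Nap1l5), 2 receptor and partner genes (Hrh1 and Mmel1) and 1 granule gene (Chga) passed. The ventral pallidum and basal forebrain markers, 0 in the fit over all mice, gave 6 with normexp, 5 with the deposited values, 3 with trended robust moderation, 2 with the filter on all 8 arrays and 1 with median scaling. Of the other transcription factors, 0 passed with no filter on dim probes, with the filter on all 8 arrays, which leaves Lhx5 out, with slide column as a block and in the mice with a shared number, and 0 to 1 with 1 mouse left out. Except for that filter, the cause was not tested. No paired analysis was possible because the labels give no number that pairs a control with an MS mouse.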
